A study of Mus musculus with 6 samples.

Results

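The 45 genes described here are genes of mitosis and DNA replication, measured by RNA sequencing in the hearts of mice fed a western diet (WD). They were chosen by name, from what they are known to do, and comprise 30 mitotic genes, 13 replication genes and 2 transcription factors that drive cell cycle genes. All 45 were found among the 54232 gene identifiers of the count data. The samples were heart ventricles of C57BL/6J WT mice that had been on WD for 15 weeks. For 3 weeks the mice were then needle fed either Tributyrin, a glycerol ester that releases the short chain fatty acid butyrate, at 5 g/kg, or Vehicle, which the sample labels call PBS, in a rhythm of 2 days on and 2 days off. Each group had 3 mice, and diet, strain and genotype were shared by both groups. The age and sex of each mouse are not in the sample labels.

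A dividing cell first copies its DNA and then separates the copies. The MCM helicase opens the double helix at replication origins, PCNA clamps the polymerases to the template, and enzymes such as ribonucleotide reductase and thymidine kinase supply the nucleotides. In mitosis, cyclins and their kinases drive entry, motors and microtubule-binding proteins build the spindle, and kinetochores tie each chromosome to it. Most cardiomyocytes of the adult mouse heart have left the cell cycle, so in whole ventricle such transcripts can come from any of the other cell types as well. In such bulk RNA, fewer cells of a type and less RNA per cell cannot be told apart.

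The libraries held between 20369746 and 32734485 counts. Counts were compared between mice after division by size factors (normalized counts), and between genes as RPKM, which scales counts to the exonic length of the gene and to the size of the library. Cardiomyocyte transcripts were abundant, and *Myl2*, the ventricular myosin light chain, had 5995 CPM (counts scaled to the library size) in WD + Vehicle and 6289 in WD + Tributyrin mice. The summed level of 5 markers of atrial muscle was however 182, 172 and 53.8 CPM in the WD + Vehicle mice and 31.04, 64.4 and 46.3 CPM in the WD + Tributyrin mice. Thus WD + Vehicle mice 1 and 2 carried more atrial transcript than the other 4, and its part in the results was not tested. Over the 14133 genes with enough counts to be tested, the quasi-likelihood test of edgeR called 0 at a false discovery rate (FDR, Benjamini-Hochberg) of 10%. An unadjusted p under 0.05 was found for 600 genes (4.25%), and limma-voom called 0 of the same genes at an FDR of 10%. DESeq2 was run without this count limit, gave a p for 25578 genes and called 11 of them (0.043%) at an FDR of 10%. Mitochondrial genes took 23.6% to 26.5% of the counts with Vehicle and 25.9% to 28.8% with Tributyrin, and the part of this share was not tested either.

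Measured per exonic length, the replication genes were the more abundant class. Their RPKM ran from 0.0414 to 8.82 with a median of 0.901, whereas the mitotic genes other than *Cenpf* ran from 0.0173 to 0.489 with a median of 0.0977. The median over all genes tested was 2.85 RPKM. *Cenpf*, which encodes a large microtubule-binding protein of the kinetochore, stood apart from its class at 1.76 RPKM, the third highest level of the 45. Above it were *Pcna* at 8.82 RPKM and *Mcm4* at 1.91 RPKM. Per exonic length the level of *Cenpf* was 44.4 times that of *Cenpe*, the kinetochore motor, 102 times that of *Knl1*, the scaffold of the outer kinetochore, and 11.8 times that of *Mki67*, the common proliferation marker. Among the mitotic genes the nearest was *Cdc20*, the activator of the anaphase-promoting complex, which *Cenpf* exceeded 3.60 times. These ratios rest on the union of all annotated exons, which for *Cenpf* is 15433 bases long.

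**Figure D1:**
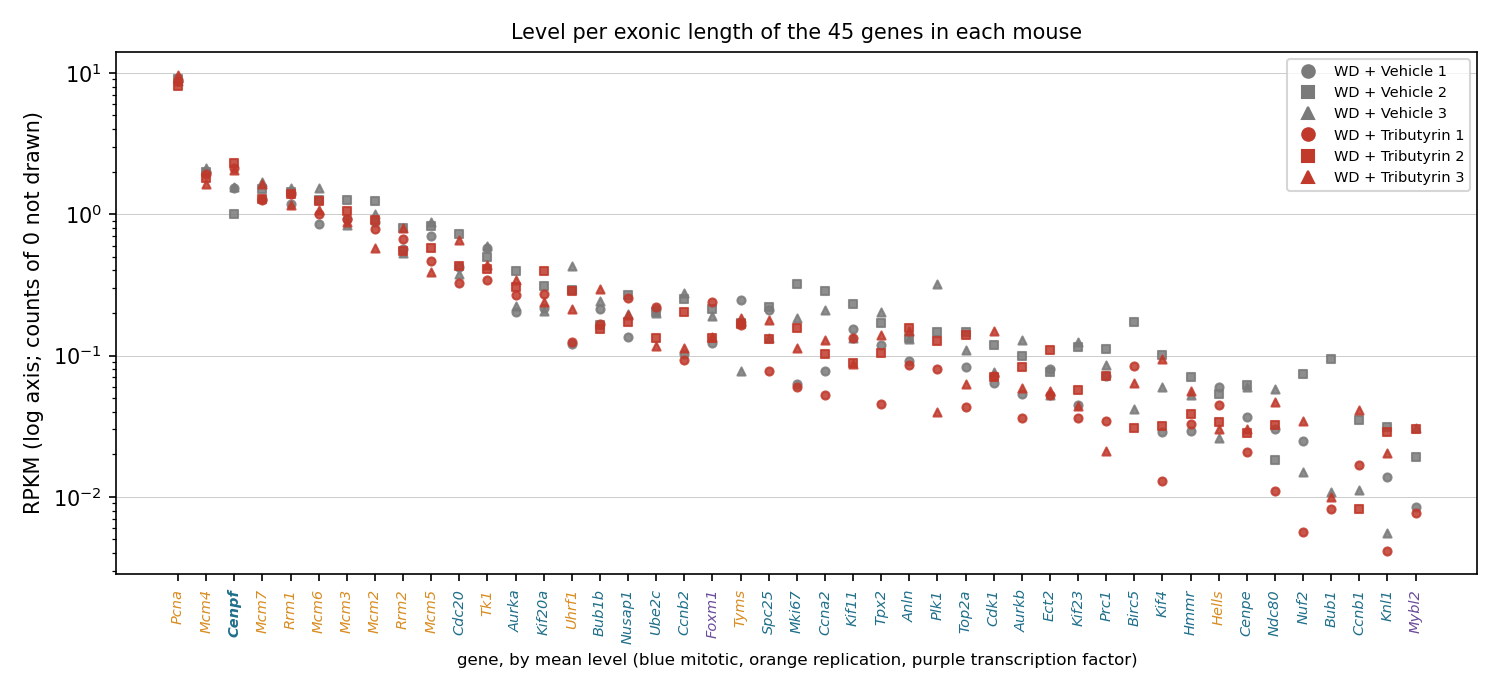
Level of each of the 45 genes in each mouse, in RPKM on a log axis, with genes ordered by their mean, WD + Vehicle mice in gray and WD + Tributyrin mice in red. *Cenpf* lies among the replication genes at 1.76 RPKM, while the other 29 mitotic genes lie between 0.0173 and 0.489.

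The promoters of these genes share short motifs that are known from cell cycle transcription, and 4 are shown. *Cenpf* and *Mki67* stand for the mitotic windows with the letters TTTGAA, and *Cenpe* for the mitotic windows without them. *Mcm5* stands for the replication windows with an E2F match. RefSeq windows (GRCm38.p6) from 250 bases before to 50 bases after the transcription start were matched for 39 of the 45 genes. Both strands were searched for TTTGAA (the CHR element, bound by the MuvB complexes), CCAAT (the CCAAT box, bound by NF-Y) and TTTNNCGC (a form of the E2F site), and matches could overlap. The windows are those of *Cenpf* (chr1:189688037-189688336, minus strand), *Cenpe* (chr3:135212313-135212612, plus strand), *Mki67* (chr7:135716330-135716629, minus strand) and *Mcm5* (chr8:75109259-75109558, plus strand), written 5′ to 3′ along the gene with the matches in capitals.
Cenpf: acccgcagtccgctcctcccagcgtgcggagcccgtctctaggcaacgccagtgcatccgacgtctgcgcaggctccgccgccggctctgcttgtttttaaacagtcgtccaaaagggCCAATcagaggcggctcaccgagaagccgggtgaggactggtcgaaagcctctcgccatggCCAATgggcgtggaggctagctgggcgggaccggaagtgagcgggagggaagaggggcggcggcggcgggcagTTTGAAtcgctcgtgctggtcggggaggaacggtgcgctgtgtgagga
Cenpe: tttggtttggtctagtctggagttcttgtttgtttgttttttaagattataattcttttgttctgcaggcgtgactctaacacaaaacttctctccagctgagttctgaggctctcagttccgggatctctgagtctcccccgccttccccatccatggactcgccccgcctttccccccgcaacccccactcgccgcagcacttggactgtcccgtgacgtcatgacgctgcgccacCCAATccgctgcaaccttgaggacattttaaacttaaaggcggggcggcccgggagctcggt
Mki67: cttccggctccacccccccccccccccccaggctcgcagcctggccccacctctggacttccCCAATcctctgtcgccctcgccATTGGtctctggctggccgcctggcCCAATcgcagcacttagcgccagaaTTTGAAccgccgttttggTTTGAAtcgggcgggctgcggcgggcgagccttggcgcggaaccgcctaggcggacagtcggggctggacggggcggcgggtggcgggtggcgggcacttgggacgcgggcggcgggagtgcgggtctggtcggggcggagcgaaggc
Mcm5: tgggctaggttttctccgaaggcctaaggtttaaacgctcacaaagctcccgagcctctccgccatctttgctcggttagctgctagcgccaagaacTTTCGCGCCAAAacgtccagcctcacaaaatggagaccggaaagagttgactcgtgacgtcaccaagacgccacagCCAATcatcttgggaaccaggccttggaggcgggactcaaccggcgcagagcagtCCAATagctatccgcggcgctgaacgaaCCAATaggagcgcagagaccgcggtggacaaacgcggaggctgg
The window of *Cenpf* holds CCAAT 132 and 71 bases before the start and TTTGAA at base 3 of the transcript, that of *Mki67* has 2 CHR matches and 3 CCAAT boxes, that of *Cenpe* has a CCAAT box and no TTTGAA, and that of *Mcm5* has 3 CCAAT boxes and 2 overlapping E2F matches. TTTGAA was found in 20 of 26 mitotic windows (76.9%) and in 1 of 12 replication windows (8.33%), against 18.1% of all 27025 promoter windows of the same length. The E2F form showed the opposite pattern, with 7 of 12 replication windows (58.3%) and 1 of 26 mitotic windows (3.85%) against 5.27% of all windows. The CCAAT box was common to both classes, in 29 of 39 windows (74.4%) against 37.9%. A match describes these letters and is not evidence of binding in the heart.

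To set *Cenpf* beside the other cell cycle genes, the comparison of WD + Tributyrin with WD + Vehicle mice was first read for *Cenpf* itself (ENSMUSG00000026605, chr1:189640606-189688086 on GRCm38, minus strand). Its difference in the same mice was known from earlier analyses when it was chosen for this comparison, so its direction is not independent evidence. *Cenpf* had 624, 408 and 634 normalized counts in the WD + Vehicle mice and 856, 931 and 834 in the WD + Tributyrin mice. Every WD + Tributyrin mouse was thus above every WD + Vehicle mouse, and WD + Vehicle mouse 2 was the lowest of all. WD + Vehicle mice averaged 555 ± 128 normalized counts (SD, n = 3) and WD + Tributyrin mice 874 ± 51.0 (SD, n = 3), which is 57.4% higher. The log2 fold change in edgeR was 0.66 (SE 0.149, 95% interval 0.33 to 0.99), with an unadjusted p of 0.00115 that ranked 15 among the genes tested. After Benjamini-Hochberg adjustment over all genes edgeR's p was 0.999, so the difference did not pass the threshold. *Cenpf* passed the FDR of 10% in DESeq2 (0.66, adjusted p = 0.0483), where 0.043% of all genes were called, in DESeq2 with a prior that shrinks fold changes (0.39, 0.0352% called) and in edgeR with no filter on low counts (0.67, 0.653% called). The exact two-sided permutation test gave p = 0.1, the smallest that 3 mice against 3 allow. Without WD + Vehicle mouse 2 the log2 fold change was 0.48. No other annotated gene shares exonic bases with *Cenpf*.

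Of the other 44 genes, 0 had all WD + Tributyrin mice above all WD + Vehicle mice, a pattern that 4.26% of all genes tested showed, and 5 had them all below (*Mcm4*, *Mcm5*, *Tk1*, *Prc1* and, untested, *Cenpe*), which 4.65% showed. Of the 45 genes 31 had enough counts to be tested and 14 did not, and in edgeR with the low-count filter 0 of the tested genes passed the FDR of 10% (0% of all genes). At an unadjusted p under 0.05, *Cenpf* was the only gene on the higher side, where 1.97% of all genes tested were found, and 6 genes were on the lower side, where 2.28% were found, each with an adjusted p of 0.999 in edgeR. These 6 were *Mcm5*, *Tk1*, *Mcm2*, *Kif11*, *Prc1* and *Kif23*. Among the tested genes without *Cenpf* 22 had a log2 fold change below 0 and 8 above, with a median of -0.15, whereas over all genes tested 50.4% were below 0 and the median was near 0. With no filter on low counts, 35 of the 44 other genes were below 0 with a median of -0.37, against 50.1% of all genes. When counts were scaled by library size alone, 26 of 30 were below 0, but so were 72.5% of all genes. The count of lower genes depended on single mice. Without WD + Vehicle mouse 2, of the 44 other genes only *Mcm5* and *Tk1* had an unadjusted p under 0.05 in edgeR, without WD + Vehicle mouse 3 only *Kif11* and *Mcm5*, and without WD + Tributyrin mouse 1 or mouse 3 the count was 3 each. It was 8 without WD + Vehicle mouse 1, with 29 of 33 genes below 0 against 48.5% of all genes, and 6 without WD + Tributyrin mouse 2. In DESeq2 on all 6 mice *Mcm2* and *Mcm5* were the other genes with an unadjusted p under 0.05. The share of all genes at that p was not taken in these fits.

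**Figure D2:**
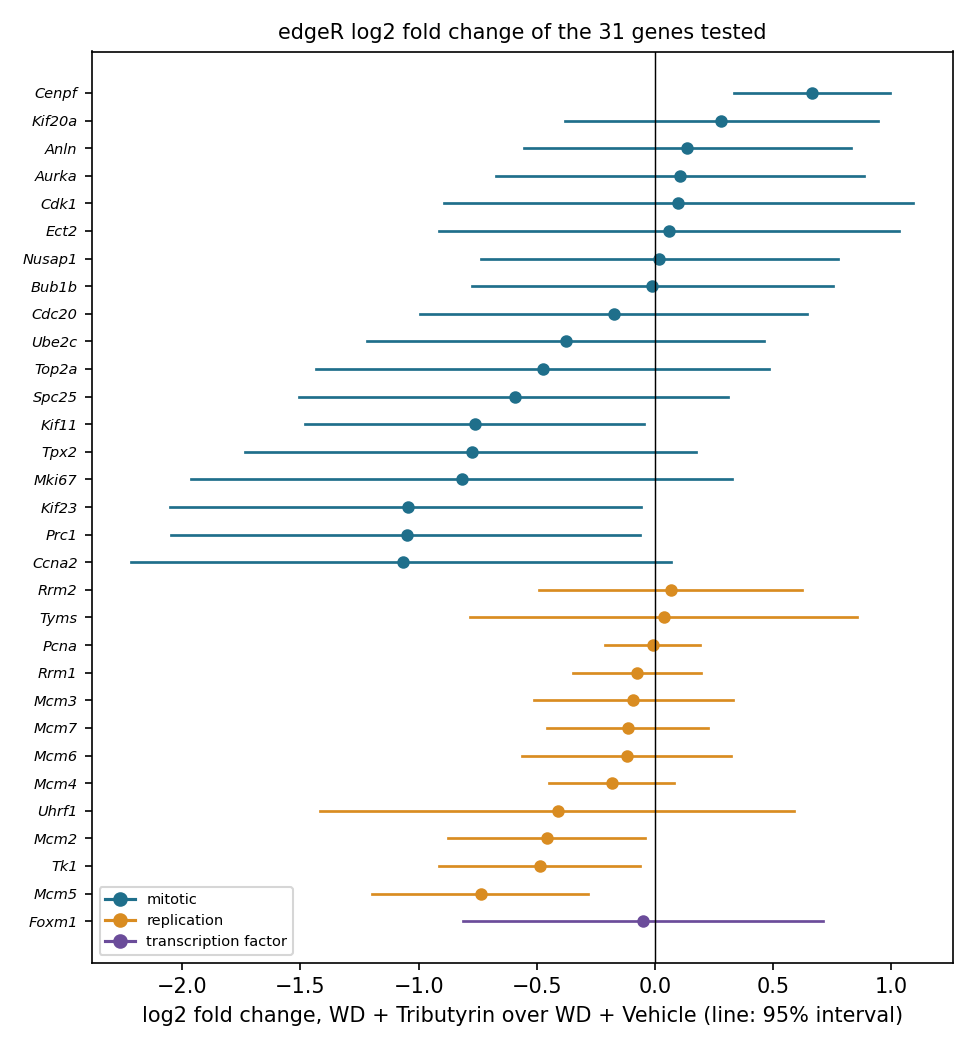
Log2 fold change of WD + Tributyrin over WD + Vehicle mice by edgeR for the 31 genes tested, with 95% intervals, colored by class. *Cenpf*, at 0.66, is the only gene whose interval lies above 0, and 6 genes have intervals below 0. The intervals reach a median of 0.91 to either side for the mitotic genes other than *Cenpf* and of 0.42 for the replication genes.

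Among the genes of DNA replication, 10 of 12 tested were lower and 2 higher in WD + Tributyrin mice. All 6 subunits of the MCM helicase were on the lower side, and 2 of them, *Mcm5* and *Mcm2*, had an unadjusted p under 0.05. *Mcm5* (chr8:75109569-75128439) had 73.8, 86.8 and 91.9 normalized counts with Vehicle and 48.6, 60.3 and 41.3 with Tributyrin. No value of either group reached into the other, and this separation was seen in 8.91% of all genes tested. The log2 fold change of *Mcm5* was -0.74 (SE 0.206, 95% interval -1.20 to -0.28), with an unadjusted p of 0.00470 and an adjusted p of 0.999 in edgeR. Its unadjusted p was under 0.05 in all 14 alternative analyses. *Mcm2* (chr6:88883474-88898780) had 161, 229 and 183 normalized counts with Vehicle and 144, 166 and 106 with Tributyrin. The groups overlapped at WD + Vehicle mouse 1 and WD + Tributyrin mouse 2, and the log2 fold change was -0.46 (SE 0.188), or -0.30 without WD + Vehicle mouse 2 and likewise without WD + Tributyrin mouse 3. *Mcm4* (chr16:15623897-15637400) showed a small separation, with 187, 188 and 200 normalized counts against 180, 171 and 154, a log2 fold change of -0.18 (SE 0.120) and an unadjusted p of 0.156 in edgeR. The log2 fold changes of *Mcm3*, *Mcm6* and *Mcm7* were -0.09, -0.12 and -0.12. Without WD + Vehicle mouse 2, 8 of 12 replication genes were lower and 4 higher, and without WD + Vehicle mouse 1, 11 were lower and 1 higher. Together the 6 subunits summed to 29.2, 36.5 and 35.8 CPM in WD + Vehicle mice and to 27.9, 30.6 and 26.9 CPM in WD + Tributyrin mice, with WD + Vehicle mouse 1 inside the range of the treated mice.

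Of the 5 genes of nucleotide supply and DNA synthesis 3 were lower and 2 higher. *Tk1* (chr11:117815526-117826092), the thymidine kinase of S phase, had 79.0, 68.2 and 80.8 normalized counts with Vehicle and 46.8, 55.7 and 59.7 with Tributyrin. All WD + Tributyrin mice were below all WD + Vehicle mice, with a log2 fold change of -0.49 (SE 0.192) and an unadjusted p of 0.0284 in edgeR. *Tk1* shares 83 of its 5198 exonic bases with *Afmid* on the opposite strand. Without a stated strand setting for the counting, reads in such shared bases cannot be told apart. *Mcm7* likewise shares 64 bases with *Cops6* and 321 with *Ap4m1*, each on the opposite strand. *Pcna* (chr2:132249162-132253314), the most abundant of the 45 genes per length, had 551, 569 and 554 normalized counts with Vehicle and 548, 508 and 608 with Tributyrin. The groups overlapped, and the log2 fold change of -0.01 had a narrow 95% interval of -0.21 to 0.19. *Rrm1* and *Rrm2*, the subunits of ribonucleotide reductase, had log2 fold changes of -0.08 and 0.07, and *Tyms*, thymidylate synthase, of 0.04. *Uhrf1*, which carries DNA methylation through replication, had -0.41 (SE 0.452) with overlapping groups.

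The mitotic genes other than *Cenpf* were scarce. Among the 17 tested 11 were lower and 6 higher, with a median log2 fold change of -0.37, and their 95% intervals reached a median of 0.91 to either side of the estimate, compared with 0.27 over all genes tested. The 3 with an unadjusted p under 0.05 in edgeR act on the spindle and in cytokinesis. *Kif11* (chr19:37376403-37421859), the motor that pushes spindle poles apart, had 30.1, 45.7 and 26.1 normalized counts with Vehicle and 26.2, 17.4 and 17.2 with Tributyrin, and its log2 fold change was -0.76 (SE 0.323). *Prc1* (chr7:80294450-80316259), which bundles the microtubules of the central spindle, had 15.6, 24.0 and 18.6 against 7.48, 15.5 and 4.59, with -1.05 (SE 0.447). *Kif23* (chr9:61915905-61946774), the motor of the midzone in cytokinesis, had 9.35, 24.0 and 26.1 against 7.48, 11.9 and 9.18, with -1.05 (SE 0.449). The groups of *Prc1* were separated by a margin smaller than 1 normalized count, and those of *Kif11* and *Kif23* overlapped. Without WD + Vehicle mouse 2 *Kif11* was at -0.47, and without WD + Tributyrin mouse 2 *Prc1* was at -1.66. *Prc1* shares 911 bases with *Rccd1* on the opposite strand. Without WD + Vehicle mouse 2, 0 of the mitotic genes other than *Cenpf* had an unadjusted p under 0.05 in edgeR, and their median was -0.19. Without WD + Vehicle mouse 1, 17 of 20 were lower and their median was -0.58.

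The usual markers of proliferation overlapped between the groups. *Mki67* (chr7:135689784-135716361) had 16.6, 85.3 and 48.5 normalized counts with Vehicle and 15.9, 41.1 and 29.8 with Tributyrin. WD + Vehicle mouse 1 was close to the lowest WD + Tributyrin mouse and mouse 2 was the highest of all 6. The log2 fold change of *Mki67*, -0.82, had a 95% interval of -1.96 to 0.32, and it was -0.14 without WD + Vehicle mouse 2 and -1.22 without WD + Vehicle mouse 1. *Top2a*, the topoisomerase that untangles sister chromatids, had 19.7, 34.9 and 26.1 against 10.3, 32.9 and 14.9, with -0.47 (SE 0.431), which became -0.15 without WD + Tributyrin mouse 1 and -1.12 without WD + Tributyrin mouse 2. *Ccna2*, the cyclin of S phase and early mitosis, had the lowest log2 fold change of the tested genes, -1.06 (SE 0.515), at 8.32, 31.02 and 22.4 against 5.61, 11.0 and 13.8, also with overlap, and was at -0.58 without WD + Vehicle mouse 2. *Cdk1*, the kinase that drives mitotic entry, had 8.32, 15.5 and 9.94 against 9.35, 9.14 and 19.5, with 0.10 (SE 0.448). Its partner *Ccnb1* was barely seen, with 0, 5 and 1 raw counts in WD + Vehicle mice and 2, 1 and 4 in WD + Tributyrin mice. After *Cenpf* the highest log2 fold changes of the tested genes were those of *Kif20a*, a motor of cytokinesis, with 0.28 (SE 0.298), and *Anln*, a scaffold of the contractile ring, with 0.14 (SE 0.312). *Kif20a* had 24.9, 35.7 and 23.6 normalized counts against 30.9, 44.8 and 27.5, and *Anln* had 21.8, 31.8 and 31.1 against 20.6, 37.5 and 35.6, so that both overlapped. *Ccna2* shares 510 bases with *Exosc9* and *Kif20a* shares 1271 bases with *Cdc23*, each on the opposite strand. *Foxm1*, the transcription factor of mitotic genes, had -0.05 (SE 0.343).

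**Figure D3:**
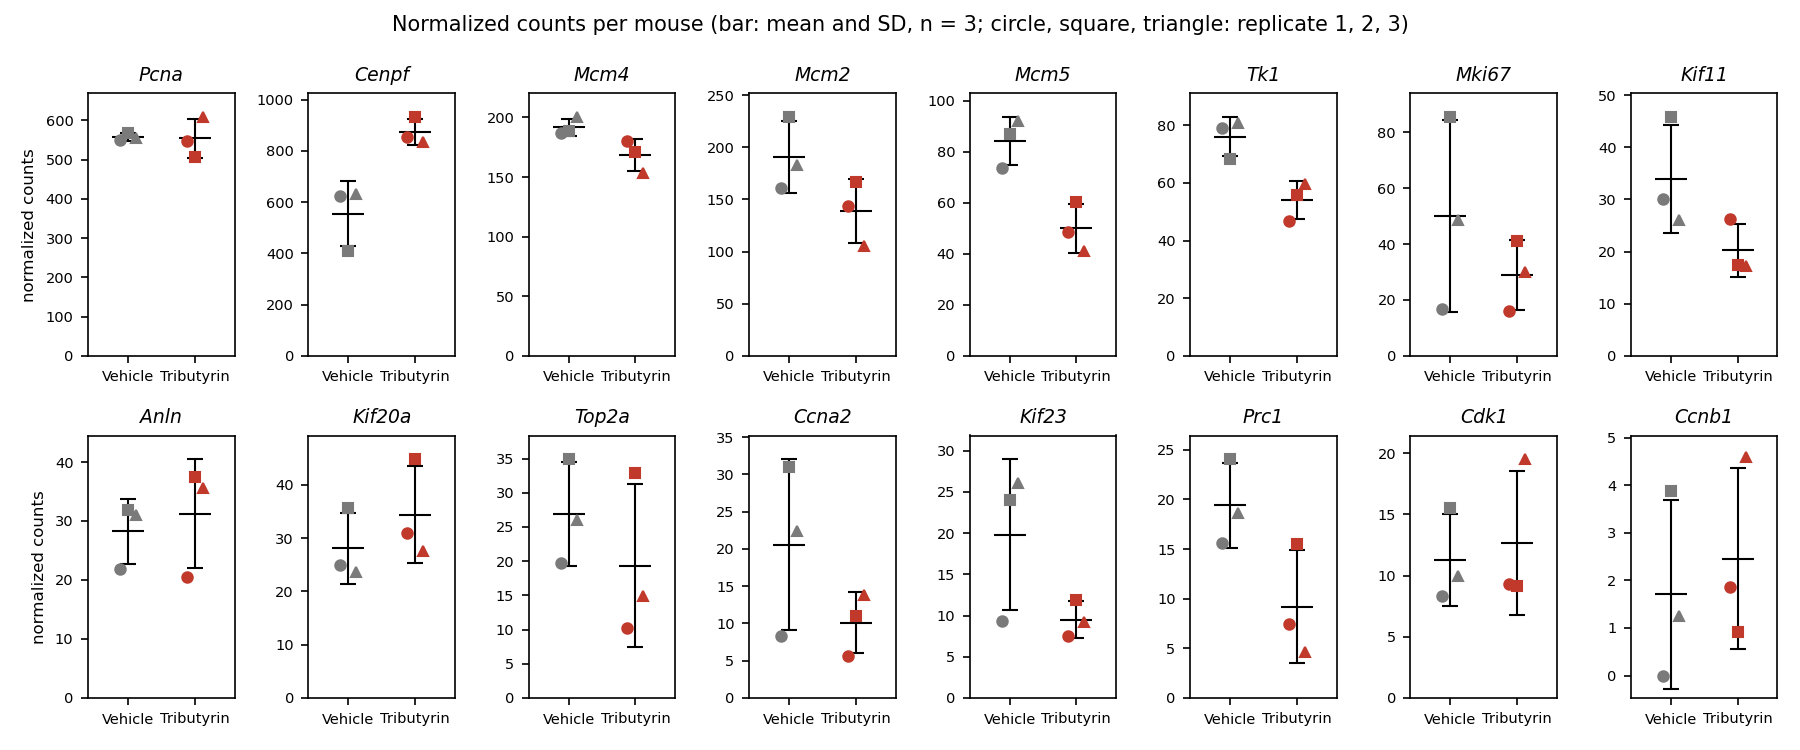
Normalized counts of 16 of the genes in each mouse, with the mean and SD of each group (n = 3) and a separate axis for each gene. *Cenpf* is the only gene with all red points above all gray points, and *Mcm4*, *Mcm5*, *Tk1* and *Prc1* have all red points below.

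Of the listed genes 7 besides *Cenpf* belong to the kinetochore or the spindle checkpoint, and the 2 tested had log2 fold changes below 0. *Cenpe* (chr3:135212537-135273611) had 8, 18 and 11 raw counts with Vehicle and 5, 7 and 6 with Tributyrin, too few to be tested, and its normalized counts were lower in every WD + Tributyrin mouse. *Spc25*, a subunit of the NDC80 complex, had a log2 fold change of -0.59 (SE 0.409), and *Bub1b*, the checkpoint kinase-like protein BUBR1, of -0.01 (SE 0.344). *Bub1* had 0, 14 and 1 raw counts against 1, 0 and 1, and *Knl1* had 3, 9 and 1 against 1, 7 and 4. *Cenpf* alone made up 90.9%, 82.8% and 90.4% of the counts of these 8 genes in the WD + Vehicle mice and 96.1%, 95.2% and 91.8% in the WD + Tributyrin mice. Of the counts of all 45 genes it held 22.2%, 12.7% and 19.5% with Vehicle (mean 18.1% ± 4.87, SD, n = 3) and 28.5%, 28.9% and 27.03% with Tributyrin (mean 28.1% ± 0.974, SD, n = 3). The Clopper-Pearson 95% interval of each share, which covers counting error only, lay at or above 25.4% in each WD + Tributyrin mouse and at or below 23.8% in each WD + Vehicle mouse. Because *Cenpf* is part of this total, the shares restate its known difference and are not separate evidence.

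The other genes were then read mouse by mouse beside *Cenpf*. WD + Vehicle mouse 2 had the highest normalized count for 18 of the 44 other genes and WD + Vehicle mouse 3 for 14, while WD + Tributyrin mouse 1 had the lowest for 16 and WD + Vehicle mouse 1 for 11. WD + Vehicle mouse 2, with the lowest *Cenpf*, was thus the mouse that had the highest value of more of the other genes than any other mouse. This opposite order rested on that mouse. WD + Vehicle mouse 3, with its 14 genes, had the highest *Cenpf* of its group, at 634 normalized counts. The 29 other mitotic genes summed to 12.3, 23.5 and 17.6 CPM in WD + Vehicle mice and to 10.8, 15.3 and 15.1 CPM in WD + Tributyrin mice. WD + Tributyrin mouse 2 had the highest *Cenpf* of all, at 931 normalized counts, and also the highest such sum of its group. The 13 replication genes summed to 70.2, 81.4 and 80.8 CPM against 69.5, 71.4 and 69.5 CPM. Both sums overlapped between the groups through WD + Vehicle mouse 1. The 14 genes with too few counts for a test (*Ccnb1*, *Ccnb2*, *Plk1*, *Aurkb*, *Birc5*, *Cenpe*, *Knl1*, *Ndc80*, *Nuf2*, *Bub1*, *Kif4*, *Hmmr*, *Hells* and *Mybl2*) had between 0 and 20 counts in a library.

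**Figure D4:**
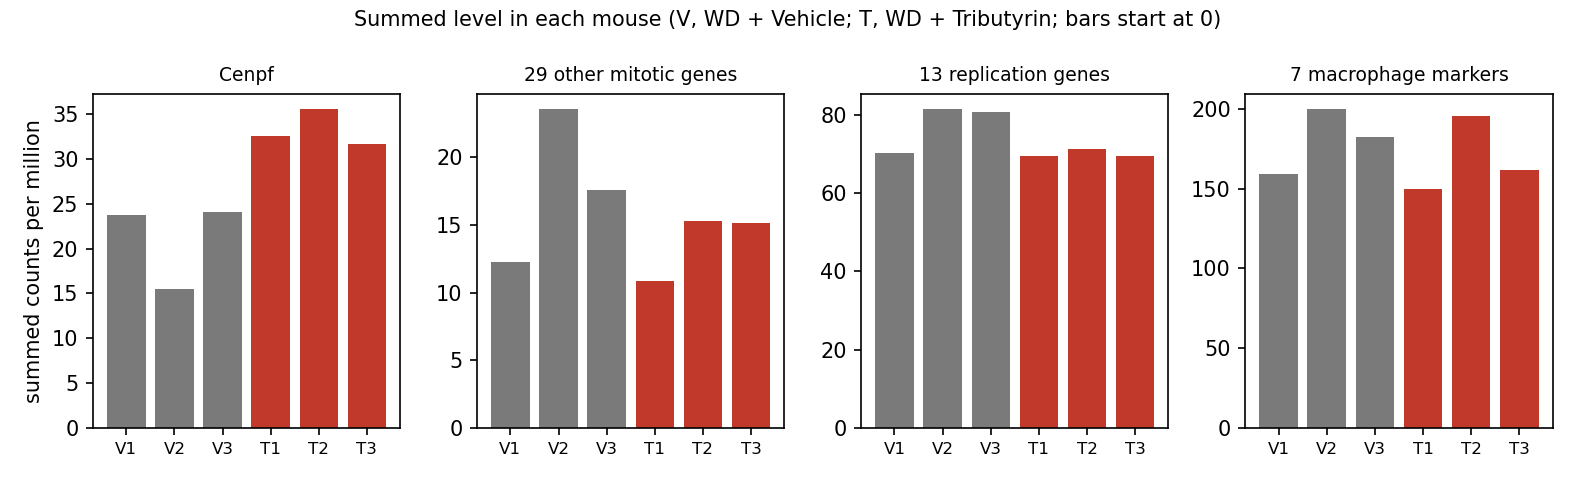
Level in each mouse, in CPM, of *Cenpf*, of the 29 other mitotic genes, of the 13 replication genes and of 7 macrophage markers, with bars starting at 0 (V, WD + Vehicle, T, WD + Tributyrin, each with the number of the mouse). *Cenpf* is lowest in V2, where the other mitotic genes reach their highest sum of 23.5 CPM. It is highest in T2, where their sum of 15.3 CPM is the highest of the WD + Tributyrin mice.

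Markers of cell types found in the heart were set beside these levels. The 7 macrophage markers summed to 159, 200 and 182 CPM in WD + Vehicle mice and to 150, 196 and 162 CPM in WD + Tributyrin mice. All 7 had log2 fold changes below 0, with 0 at an unadjusted p under 0.05 in edgeR, and their sum was highest in WD + Vehicle mouse 2, as was that of the mitotic genes. Fibroblast markers were lower for 5 of 7 genes, with 2 at an unadjusted p under 0.05 in edgeR and 1 whose groups did not overlap. They summed to 867, 979 and 954 CPM with Vehicle and to 777, 961 and 789 CPM with Tributyrin. The fibroblast sum was thus also highest in WD + Vehicle mouse 2. Endothelial markers were higher for 4 of 7 and lower for 3. Pericyte and smooth muscle markers summed to between 1043 and 1079 CPM with Vehicle and between 1097 and 1186 CPM with Tributyrin, so that the sum was higher in every WD + Tributyrin mouse. Of its 6 genes 5 were higher and 1 lower, 1 had groups that did not overlap, and 1 had an unadjusted p under 0.05 in edgeR (*Myh11*, the smooth muscle myosin, at 0.59). Of 8 cardiomyocyte markers 6 were higher and 2 lower, and 4 had an unadjusted p under 0.05 in edgeR, namely the troponins *Tnnt2* (0.23) and *Tnni3* (0.21) and phospholamban, *Pln* (0.24), on the higher side and cardiac actin, *Actc1* (-0.21), on the lower side. The 5 atrial markers all had log2 fold changes below 0, from -2.24 to -0.53 with a median of -1.94. Of these 4 had an unadjusted p under 0.05 in edgeR, and all 5 had groups that overlapped. Lymphocyte markers reached no more than 2.14 CPM in sum and neutrophil markers 1.90 CPM. The 5 erythroid markers summed to 545, 490 and 696 CPM with Vehicle and to 941, 383 and 502 CPM with Tributyrin, with 3 higher and 2 lower. Groups did not overlap for 2 of the cardiomyocyte markers and for 0 of the macrophage, endothelial and erythroid markers. Over all genes tested, 4.25% had an unadjusted p under 0.05 in edgeR and 8.91% had groups that did not overlap. The part of these cell types in the results was not tested.

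A further 175 genes of the cell cycle, among them centromere and kinetochore proteins, condensins, origin and fork factors, G1/S cyclins and CDK inhibitors, were tested in the same way. Of these 129 had enough counts, 59 were higher and 70 lower in WD + Tributyrin mice, and the median log2 fold change was -0.01. At an unadjusted p under 0.05 in edgeR 2 were higher and 2 lower, and 0 passed the FDR of 10%. Over all genes tested 1.97% were higher and 2.28% lower at that p. The lowest p on the higher side was that of *Cdca8*, which encodes borealin of the chromosomal passenger complex, with 6.24, 6.20 and 8.70 normalized counts against 14.0, 11.9 and 17.2 and a log2 fold change of 1.03 (SE 0.396). The lowest on the lower side was that of *Cdc6*, which loads the MCM helicase at origins, with 16.6, 12.4 and 11.2 against 5.61, 5.48 and 4.59 and a log2 fold change of -1.33 (SE 0.417). Both had groups that did not overlap, as 8.91% of all genes tested did, and adjusted p values of 0.999 in edgeR. The 30 further centromere and kinetochore genes, of which 19 were tested, had 9 higher and 10 lower with a median of -0.01, and 0 of them had an unadjusted p under 0.05 in edgeR.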

How the data were processed

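Heart ventricle RNA of 3 WD + Tributyrin and 3 WD + Vehicle mice was sequenced, and the authors deposited whole-number read counts per gene without normalization. Per the labels' processing notes the tools were cutadapt 1.13, STAR, HTSeq 0.6.1p1 and DESeq2 1.14.1 with mm10. Which annotation release and strand setting were used for counting is not given in the sources used here. Gene names, positions and exonic lengths came from GENCODE M21 (54165 of 54232 identifiers matched), and lines that name no gene numbered 0. Totals were 20369746 to 32734485 counts per library. Low counts, and only 3 mice a group, limit precision.

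The main test was edgeR 4.0.16's quasi-likelihood test in R 4.3.3, with TMM scaling and filterByExpr (minimum count 10, minimum total 15), with Benjamini-Hochberg adjustment over all genes tested. Log2 fold changes are WD + Tributyrin over WD + Vehicle. Normalized counts are counts over DESeq2 size factors, and CPM and RPKM use the TMM-scaled library sizes. Alternatives were limma-voom (limma 3.58.1), DESeq2 1.42.0 with its fold changes shrunken or not, 2 other scalings, 2 other filters, a block for the replicate number, and fits without each of the 6 mice. The steps were tested on simulated data. Nothing in the labels says how the replicates were handled beyond separate titles, so p-values measure the spread between these samples.

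The genes, role groups, marker lists and tests were chosen with earlier results of these data known. The genes named with values are *Cenpf*, those with an unadjusted p under 0.05, the 3 highest and the 3 lowest log2 fold changes, the 3 most abundant per length and the usual proliferation markers, with the others described by count and range or for their place in a complex. Of the further cell cycle genes the lowest p in each direction is named. *Cenpe*, *Spc25*, *Bub1*, *Bub1b*, *Knl1*, *Cdc20*, *Foxm1* and the remaining replication genes were given outside this rule after their values were seen. The authors' own comparison table was not used.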

Additional observations from a re-analysis of the deposited data

How the results depend on the processing

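The main analysis called 0 genes at an FDR of 10% and 0 at 5%. At 10% the call count was 167 with no filter on low counts, 11 in DESeq2 without and 9 with a prior on fold changes, 2 with the replicate block, and 0 to 3 with each mouse left out. At 5% it was 140, 5, 5 and, with each mouse left out, 0 to 3. *Cenpf* was the 1 gene of the list called at 10% with no filter and in both DESeq2 analyses, at log2 fold changes of 0.67, 0.66 and 0.39, and with each mouse left out it ran from 0.48 to 0.77 with 0 genes of the list called. The count of listed genes at an unadjusted p under 0.05 was 7, and it was 3 in both DESeq2 analyses and 3 to 9 with each mouse left out, with 3 without WD + Vehicle mouse 2 or 3 and 4 without WD + Tributyrin mouse 1 or 3. The median log2 fold change of the tested genes of the list stayed below 0 in all 14 alternatives, between -0.30 and -0.05. With no filter and in DESeq2 this median was taken over the 31 genes tested in the main analysis. Over all 44 genes other than *Cenpf* it was -0.37 with no filter. In DESeq2 it was -0.35 over these 44 without the prior and -0.03 with it. Leaving out single mice turned the sign of *Anln* (-0.030 to 0.37), *Cdk1* (-0.31 to 0.29) and *Pcna* (-0.075 to 0.048). The cause of these changes was not tested. Same-numbered mice deviated together with correlations of 0.21, 0.04 and 0.01, and 4 of 6 were closest to their own number. With so few mice this does not decide whether the numbers are pairs. The labels name no pairs, and the main analysis took none. With the replicate number as a block *Cenpf* was at 0.68 with an adjusted p of 0.348 in edgeR, and 9 listed genes had an unadjusted p under 0.05. The share of all genes at that p was taken in the main analysis only, where it was 4.25%. The counts of listed genes in the alternatives are therefore not set against a background. Over all 14 alternatives the adjusted p of *Cenpf* in edgeR, DESeq2 or limma ran from 1.74e-07 to 1.00. The mitotic genes other than *Cenpf* had at most 42.2 counts a library on average, which limits what could be seen.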
